A study of Mus musculus with 12 samples.

Results

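The Gimap genes encode the GTPases of the immunity-associated protein family, and 8 of them were measured among 19494 genes with a symbol on the arrays. They were taken by gene symbol (Gimap1, Gimap3, Gimap4, Gimap5, Gimap6, Gimap7, Gimap8 and Gimap9), each had 1 probe set, and all 8 were above the limit on low values used for testing, a mean log2 intensity of 4.96. The samples were bulk RNA from haematopoietic stem cells (HSC) and multipotent progenitors (MPP) of untreated mouse bone marrow. Both came from the LSK compartment (no lineage markers, with Sca-1 and Kit on the surface), where HSC were sorted as CD150+ cells without CD48, and MPP as CD48+ cells without CD150. KO mice were Nfat5 fl/fl Vav-Cre and carried floxed Nfat5 alleles for deletion in blood-forming cells; NFAT5 is a transcription factor of the osmotic stress response. WT mice were Nfat5 +/+ Vav-Cre and so carried the same Cre, whose Vav promoter is active throughout the blood system and in part of the endothelium. KO mice 2, 11 and 70 and WT mice 3, 12 and 64 each gave 1 HSC and 1 MPP array, which made 4 groups of 3 (KO HSC, WT HSC, KO MPP, WT MPP). The sources used here give no age for the mice.

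GIMAP proteins are GTP-binding proteins found mainly in lymphocytes, and several sit on the membranes of organelles such as lysosomes or lipid droplets. Their genes lie side by side in 1 cluster, on chromosome 6 in the mouse, in the order Gimap8, Gimap9, Gimap4, Gimap6, Gimap7, Gimap1, Gimap5 and Gimap3, with Gimap6 and Gimap3 on the minus strand. The family is best known for setting the survival and death of T and B cells. Gimap5 is also known from mutant mice to be needed for the upkeep of stem cells in the marrow.

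Each value is a log2 intensity of 1 probe set after the authors' RMA normalization, and a difference of 1 is a doubling of signal. Signals of different probe sets are not comparable, so no gene's level is set against another's. Array medians lay between 5.81 and 5.91. One library was unlike its group: over all genes, the HSC array of KO mouse 2 strayed from the KO HSC mean with an SD of 0.438, while the rest strayed with SDs of 0.276 to 0.378. Nfat5 read 7.34 to 7.89 in KO HSC and 8.27 to 8.99 in WT HSC, and 6.99 to 7.45 in KO MPP and 7.82 to 8.28 in WT MPP, so the genotypes did not overlap in either population (two-sided exact permutation test, p = 0.1, the smallest that 3 against 3 allows). The Nfat5 difference was -0.91 in HSC (adjusted p = 0.566 by limma) and -0.87 in MPP (adjusted p = 0.99991 by limma), so it did not pass over all genes, and whether its probes lie in the deleted part was not tested. The sorted populations carried their markers. Of 14 tested stem cell genes 8 passed as higher in HSC over both genotypes (limma, Benjamini-Hochberg over 14620 genes, passing at an adjusted p under 0.05). Among them were the fusion partner Mllt3 by 2.65 and the receptor Tek by 2.25. Tek averaged 4.61 in MPP, under the limit on low values, so it was tested through its HSC values. Of 16 lymphoid priming genes 10 passed as lower, among them Tespa1 of T cell receptor signalling by -4.19. In that list Dntt (3.83), Il7r (4.61) and Ccr9 (4.48) averaged under the limit in HSC, so both counts are descriptions. Both lists hold a gene of the sort, Slamf1 and Cd48.

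The comparison of HSC with MPP asked how the family differs between stem cells and their progeny. Gimap8 was the member that differed most clearly. It was higher in HSC over both genotypes by 0.71 on the log2 scale (SE 0.15, 95% interval 0.39 to 1.03), a 1.63-fold higher signal with an adjusted p of 0.0184 by limma. Gimap3 and Gimap4 had higher means in HSC and Gimap7 a lower one without passing. Gimap1, Gimap5, Gimap6 and Gimap9 had intervals that spanned 0 when the mouse was not a block. Thus 1 of 8 members passed, against 4.85% of all genes tested. The median difference of the 8 members was 0.36, against 0.047 over all genes tested. Of all genes 57.2% were above 0, and of the members 5 were above 0 and 3 below. One of the 5, Gimap3, passed the limit on low values through its HSC arrays and averaged under it in MPP, so the count and the median are descriptions.

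**Figure D1:**
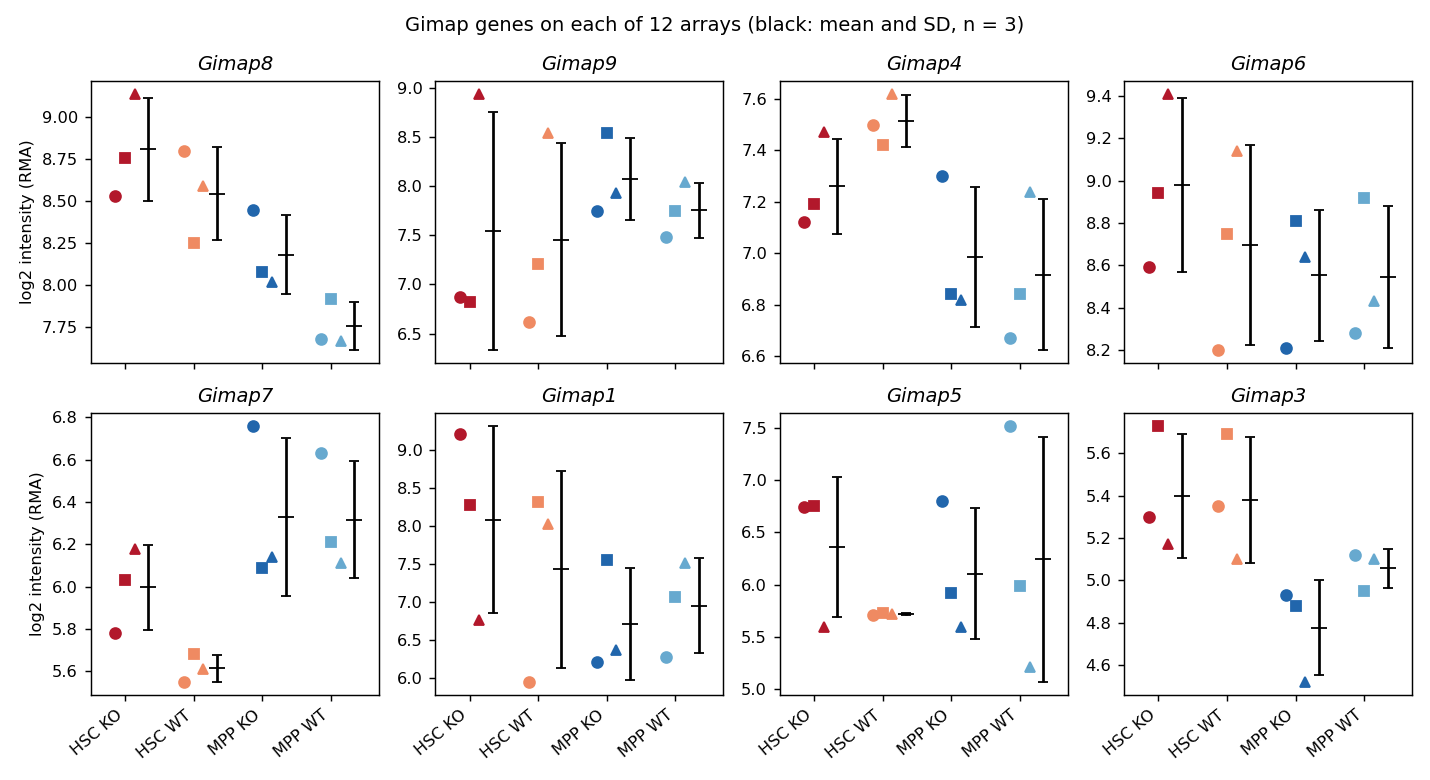
Log2 intensity of each Gimap gene on the 12 arrays, by group (KO HSC, WT HSC, KO MPP, WT MPP); points are arrays, with circles for mice 2 and 3, squares for mice 11 and 12 and triangles for mice 70 and 64, and black marks give the mean and SD of 3 arrays. Gimap8 is highest in KO HSC (mean 8.81) and lowest in WT MPP (mean 7.76), while Gimap1, Gimap5 and Gimap9 scatter widely within groups.

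Gimap8 encodes a GIMAP protein with several GTPase domains in a row, unlike the other members. It read 8.53, 8.76 and 9.14 in KO HSC, 8.80, 8.25 and 8.59 in WT HSC, 8.45, 8.08 and 8.02 in KO MPP, and 7.68, 7.92 and 7.67 in WT MPP. The HSC and MPP values did not overlap within either genotype. By mean the order was KO HSC (8.81 ± 0.31), WT HSC (8.55 ± 0.28), KO MPP (8.18 ± 0.23) and WT MPP (7.76 ± 0.14, SD, n = 3 each). The first group overlapped the second and the second overlapped the third, while KO MPP and WT MPP did not overlap. In all 6 mice the HSC array read higher than the MPP array of the same animal, by 0.078 to 1.12, which held for 7.73% of genes tested. In KO mice alone the difference was 0.63 (SE 0.21, adjusted p = 0.223 by limma) and in WT mice alone 0.79 (SE 0.21, adjusted p = 0.0941).

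The call on Gimap8 was not firm. With the mouse as a block the difference was the same and the adjusted p by limma was 0.0887. It also missed the threshold without WT mouse 3 (0.62, adjusted p = 0.0962), KO mouse 11 (0.69, adjusted p = 0.0809), WT mouse 64 (0.68, adjusted p = 0.105) or KO mouse 70 (0.58, adjusted p = 0.0798), each by limma. Without the HSC array of KO mouse 2 the difference was 0.78 with an adjusted p of 0.0157 by limma.

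Gimap4, known in mice to speed the death of T cells, read 7.12, 7.19 and 7.47 in KO HSC and 7.30, 6.84 and 6.82 in KO MPP. In WT mice it read 7.50, 7.42 and 7.62 in HSC and 6.67, 6.84 and 7.24 in MPP. The populations did not overlap in WT mice but did in KO mice, where the MPP array of mouse 2 read above its HSC array. Over both genotypes Gimap4 stood at 0.44 (SE 0.14, 95% interval 0.14 to 0.73, adjusted p = 0.105 by limma), with HSC higher in 5 of 6 mice. The share of all genes with HSC higher in 5 of 6 mice was not computed.

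Gimap3, a close relative of Gimap5 known in mice as a survival factor of T cells, read 5.30, 5.73 and 5.17 in KO HSC and 4.93, 4.88 and 4.52 in KO MPP. It read 5.35, 5.69 and 5.10 in WT HSC and 5.12, 4.95 and 5.10 in WT MPP. Here the populations were apart in KO mice and overlapped in WT mice. Over both genotypes it averaged 5.39 ± 0.26 in HSC and 4.92 ± 0.22 in MPP (SD, n = 6 each), so the MPP mean was under 4.96, the limit on low values, as were all 3 KO MPP arrays. Gimap3 was tested because of its HSC values, and its difference of 0.47, which did not pass, is given only as a description.

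Gimap7, whose human counterpart sits on lipid droplets, went the other way. It read 5.78, 6.03 and 6.18 in KO HSC and 6.76, 6.09 and 6.14 in KO MPP, which overlapped. It read 5.55, 5.68 and 5.61 in WT HSC and 6.63, 6.21 and 6.11 in WT MPP, where every HSC array was below every MPP array. The difference over both genotypes was -0.52 (SE 0.15, 95% interval -0.85 to -0.19, adjusted p = 0.0776 by limma), with HSC lower in 5 of 6 mice. The share of all genes with HSC lower in 5 of 6 mice was not computed.

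Counted over the family, HSC and MPP values were apart in KO mice for 2 members that were higher in HSC (Gimap8, and Gimap3 with all its KO MPP values under the limit on low values) and for 0 that were lower, against 9.77% and 7.33% of genes tested. In WT mice they were apart for 2 higher members (Gimap4 and Gimap8) and 1 lower member (Gimap7), against 11% and 10.3% of genes tested. No member passed within one genotype by limma, where 1.26% of genes passed in KO mice and 2.07% in WT mice. At an unadjusted p under 0.05 there were 2 members in KO mice and 3 in WT mice, against 12.4% and 14.1% of genes tested.

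**Figure D2:**
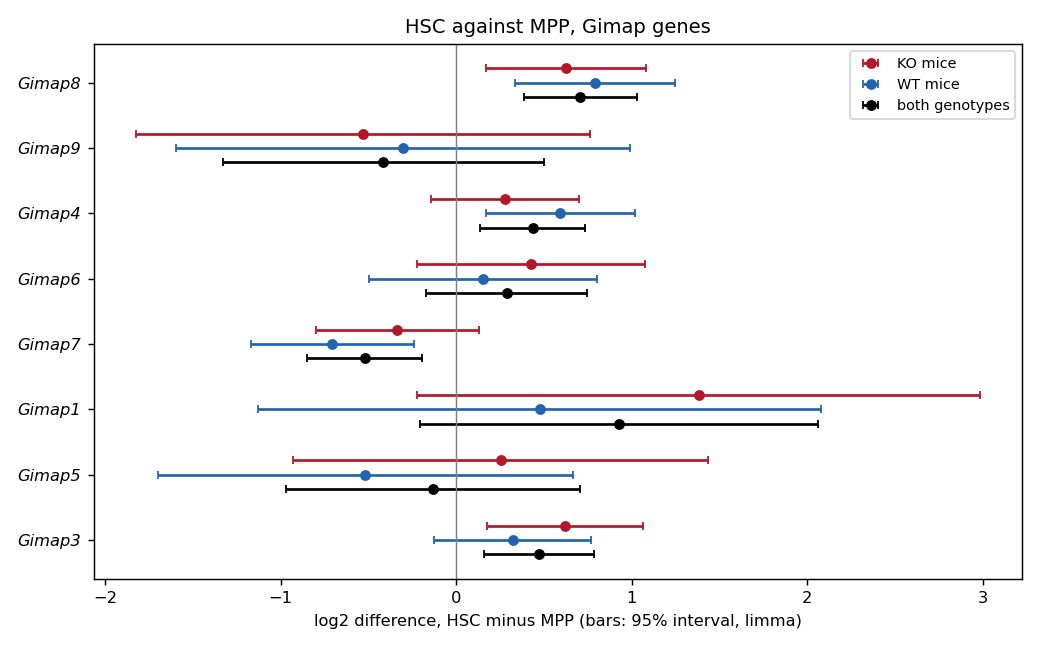
Log2 difference of each Gimap gene, HSC minus MPP, in KO mice, in WT mice and over both genotypes, with 95% intervals from limma; rows follow the order of the cluster. Gimap8 lies at 0.63, 0.79 and 0.71, Gimap7 lies below 0 in all 3, and the widest bars belong to Gimap1, Gimap5 and Gimap9.

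To set the members that leaned in opposite directions beside each other, the 250 bases before the first listed start of Gimap8 and Gimap4 (higher in HSC) and of Gimap7 (lower) are given from RefSeq on GRCm38.p6, all on the plus strand, at chr6:48646984-48647233 for Gimap8, chr6:48684328-48684577 for Gimap4 and chr6:48718371-48718620 for Gimap7. Capitals mark matches, on either strand, to 4 short cores. The core of the NFAT5 element, which is shared with other NFAT factors, was searched as TGGAAA. For the ETS factors the letters searched were AGGAAG. For the RUNX factors of blood formation they were TGTGGT. For the GATA factors of blood formation they were AGATAA.
Gimap8: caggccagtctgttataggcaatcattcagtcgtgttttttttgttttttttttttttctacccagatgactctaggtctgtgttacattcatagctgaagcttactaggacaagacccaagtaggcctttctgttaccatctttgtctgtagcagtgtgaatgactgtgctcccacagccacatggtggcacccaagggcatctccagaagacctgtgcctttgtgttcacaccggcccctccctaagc
Gimap4: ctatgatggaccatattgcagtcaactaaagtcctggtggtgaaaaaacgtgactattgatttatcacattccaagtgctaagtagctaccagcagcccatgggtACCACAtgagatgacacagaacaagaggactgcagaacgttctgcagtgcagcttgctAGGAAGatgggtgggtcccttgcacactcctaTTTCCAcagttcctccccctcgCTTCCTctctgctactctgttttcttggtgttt
Gimap7: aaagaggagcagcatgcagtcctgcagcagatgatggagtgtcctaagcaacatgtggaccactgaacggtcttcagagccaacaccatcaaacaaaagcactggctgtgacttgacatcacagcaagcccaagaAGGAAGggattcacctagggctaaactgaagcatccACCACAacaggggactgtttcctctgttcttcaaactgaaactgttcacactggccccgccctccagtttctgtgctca
The Gimap8 window held none of these letters, the Gimap4 window held the NFAT5 core, the RUNX core and 2 ETS cores, and the Gimap7 window held 1 ETS core and 1 RUNX core. Gimap8 has 2 listed starts, and the window of its other start was not searched. Over the windows of all 8 members, the ETS core was found in 6, the NFAT5 core in 4, the RUNX core in 3 and the GATA core in 0. The same windows of 27018 genes held the ETS core in 29.2%, the NFAT5 core in 18.7%, the RUNX core in 14.2% and the GATA core in 10.3%. The members are related genes of 1 cluster, so their counts are descriptions and were not tested against these shares. A match is only a run of letters and was not tied to any binding here.

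The remaining members, none of which passed, had intervals that spanned 0 when the mouse was not a block. Gimap1, which mouse T and B cells need to mature and persist, read 9.21, 8.28 and 6.76 in KO HSC and 6.20, 7.55 and 6.36 in KO MPP. In WT mice it read 5.94, 8.32 and 8.02 in HSC and 6.27, 7.06 and 7.51 in MPP. Its highest value was on the HSC array of KO mouse 2, where HSC read 3.01 above MPP of the same mouse, and its lowest on the HSC array of WT mouse 3. The difference over both genotypes was 0.93 (SE 0.51, 95% interval -0.21 to 2.06, adjusted p = 0.348 by limma) and 0.65 without the HSC array of KO mouse 2. With the mouse as a block the 95% interval of the Gimap1 difference was 0.031 to 1.83, above 0, and it did not pass (adjusted p = 0.247 by limma).

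Gimap5, a lysosomal member, read 6.74, 6.75 and 5.59 in KO HSC and 5.71, 5.73 and 5.72 in WT HSC. In MPP it read 6.80, 5.92 and 5.59 in KO and 7.52, 5.99 and 5.21 in WT. The WT HSC arrays lay closest together (SD 0.00979, n = 3) and the WT MPP arrays farthest apart (SD 1.17, n = 3). HSC and MPP differed by -0.13 over both genotypes (SE 0.38, 95% interval -0.97 to 0.70).

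Gimap6, which takes part in autophagy by binding an ATG8 protein, read 8.59, 8.94 and 9.41 in KO HSC and 8.21, 8.81 and 8.64 in KO MPP. It read 8.20, 8.75 and 9.14 in WT HSC and 8.28, 8.92 and 8.43 in WT MPP. All groups overlapped, and the difference between HSC and MPP over both genotypes was 0.29 (SE 0.21, 95% interval -0.17 to 0.75). Gimap9 read 6.87, 6.82 and 8.94 in KO HSC and 7.75, 8.54 and 7.93 in KO MPP, against 6.62, 7.21 and 8.54 in WT HSC and 7.48, 7.75 and 8.04 in WT MPP. Only the HSC arrays of KO mouse 70 and WT mouse 64 read above the MPP arrays of their own mice, and the difference over both genotypes was -0.42 (SE 0.41, 95% interval -1.33 to 0.50). It lay at -0.12 without mouse 11 and at -0.80 without mouse 70, the extremes when a mouse or an array was left out.

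The spread within groups sorted the family into quiet and noisy members. The SD around the group means was 1.02 for Gimap1, 0.818 for Gimap9 and 0.744 for Gimap5, above that of 98.0%, 94.8% and 92.8% of genes tested. It was 0.387 for Gimap6 and 0.225 to 0.255 for Gimap3, Gimap4, Gimap7 and Gimap8, against a median of 0.286 over all genes tested. Mature neutrophil markers also differed widely between libraries. The mean of their list was 6.27, 7.45 and 5.67 in KO HSC (mice 2, 11 and 70) and 7.69, 7.35 and 5.82 in WT HSC (mice 3, 12 and 64). In MPP it was 6.67, 6.53 and 5.86 in KO and 6.91, 6.54 and 4.96 in WT. The HSC arrays of KO mouse 70 and WT mouse 64 were the lowest of their groups for this list and the highest for Gimap9 and Gimap6. Their MPP arrays were also the lowest for the list, but neither was the highest for Gimap6 (8.64 and 8.43). For Gimap9 the MPP array of WT mouse 64 was the highest of its group (8.04) and that of KO mouse 70 was not (7.93). The part of neutrophils in the spread was not tested. The HSC minus MPP differences within single mice ran between -1.81 for Gimap5 in WT mouse 3 and 3.01 for Gimap1 in KO mouse 2.

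**Figure D3:**
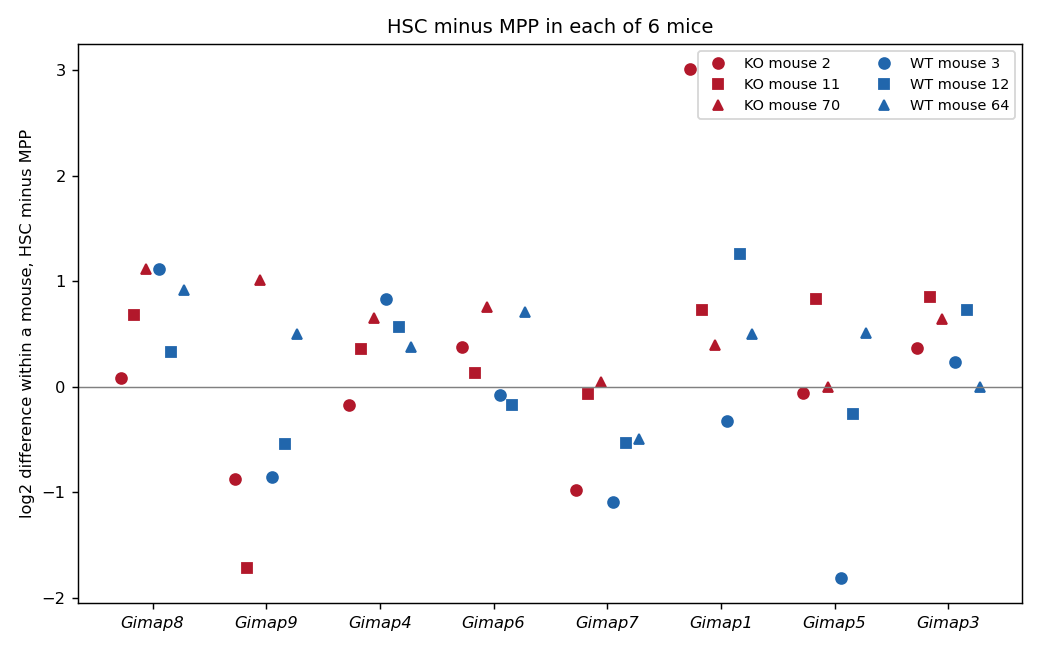
HSC minus MPP log2 difference of each Gimap gene within each of 6 mice; red points are KO mice and blue points are WT mice. All 6 points of Gimap8 lie above 0 (0.078 to 1.12), while those of Gimap1, Gimap5 and Gimap9 spread to both sides.

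Within groups, pairs of members varied in the same and in opposite directions. Across the 12 arrays, taken as deviations from the group means, the 28 pairs of members had Pearson r between -0.75 (Gimap1 and Gimap8) and 0.80 (Gimap6 and Gimap9), with a median of 0.0027 and 14 of 28 above 0. The arrays share mice and the normalization, so these values are a description. The mean of all 8 members lay between 7.27 and 7.33 in KO HSC, 6.71 and 7.29 in WT HSC, 6.75 and 7.09 in KO MPP, and 6.91 and 6.96 in WT MPP. The KO HSC range lay above both MPP ranges, and the WT HSC range overlapped all of the others. The KO HSC range includes Gimap1 at 9.21 on the array of mouse 2, which was unlike its group. The mean also includes Gimap3, which averaged under the limit on low values in MPP. No share over all genes was computed for such means, so the ranges are descriptions.

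The comparison of KO with WT asked whether deletion of Nfat5 changes the family. No Gimap gene passed in either population by limma. In HSC 0 of 8 members passed, as did 0 of 14620 genes (0%), with 919 genes (6.29%) and 0 members at an unadjusted p under 0.05. In MPP 0 of 8 members passed, as did 0 genes (0%), with 466 genes (3.19%) and 0 members at an unadjusted p under 0.05. The members' median difference was 0.27 in HSC and 0.014 in MPP, against medians of 0.021 and 0.0024 over all genes. Above 0 were 7 of 8 members in HSC and 5 of 8 in MPP, against 53.4% and 50.5% of all genes. Other gene lists differed in HSC. Of guanylate-binding, immunity-related and Mx GTPases 6 of 14 were above 0 (median -0.14), and of stem cell genes 7 of 14 (median -0.0010). The lymphoid priming genes had 12 of 16 above 0, a median of 0.23 and 0 passing by limma. Of these, Dntt, Il7r and Ccr9 averaged under the limit on low values in HSC, so the count, median and mean of the list are descriptions. The mean of that list was 6.27 to 6.41 in KO HSC and 6.08 to 6.11 in WT HSC, which did not overlap. Of single genes tested, 5.15% had every KO HSC array above every WT HSC array. That share does not serve for the mean of a list, for which none was computed. The part of that list in the Gimap values was not tested.

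Gimap8 and Gimap7 came nearest to a difference between genotypes. For Gimap8 the KO minus WT difference was 0.26 in HSC (95% interval -0.19 to 0.72, and 0.098 to 0.40 when a mouse or an array was left out) and 0.42 in MPP (95% interval -0.030 to 0.88). Averaged over the HSC and MPP array of each mouse, Gimap8 read 8.49, 8.42 and 8.58 in KO mice and 8.24, 8.08 and 8.13 in WT mice, so every KO mouse was above every WT mouse. The difference was 0.34 (SE 0.12, 95% interval 0.071 to 0.62), but over all genes the adjusted p was 0.99993 by limma, and 4.85% of genes had all KO mice above all WT mice. This mean difference lay between 0.30 and 0.39 when 1 mouse was left out. For Gimap7 the KO HSC arrays (5.78, 6.03 and 6.18) were all above the WT HSC arrays (5.55, 5.68 and 5.61), a difference of 0.38 (SE 0.21, 95% interval -0.079 to 0.85, adjusted p = 0.854 by limma), while in MPP it was 0.015 (95% interval -0.45 to 0.48).

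Genotypes without overlap were seen for 1 higher and 0 lower members in HSC (Gimap7), against 5.15% and 3.72% of genes tested. In MPP there was 1 higher member (Gimap8) and 1 lower member (Gimap3), against 4.82% and 4.66%, and the Gimap3 values there averaged under the limit on low values. Gimap3 in MPP stood at -0.28 (95% interval -0.73 to 0.16), and Gimap4 in HSC, the 1 member below 0 there, at -0.25 (95% interval -0.67 to 0.17).

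For the stem cell survival gene Gimap5 the KO minus WT difference was 0.64 in HSC (SE 0.54, 95% interval -0.54 to 1.82) and -0.13 in MPP (SE 0.54, 95% interval -1.31 to 1.05). Its 2 higher KO HSC readings came from mice 2 and 11. Gimap1 stood at 0.66 in KO HSC against WT HSC (SE 0.73), and at 0.095 without the HSC array of KO mouse 2. The 95% intervals reached past 1 log2 unit in both directions for Gimap9 in HSC (-1.21 to 1.38), and for Gimap1 (-1.85 to 1.36) and Gimap5 in MPP.

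**Figure D4:**
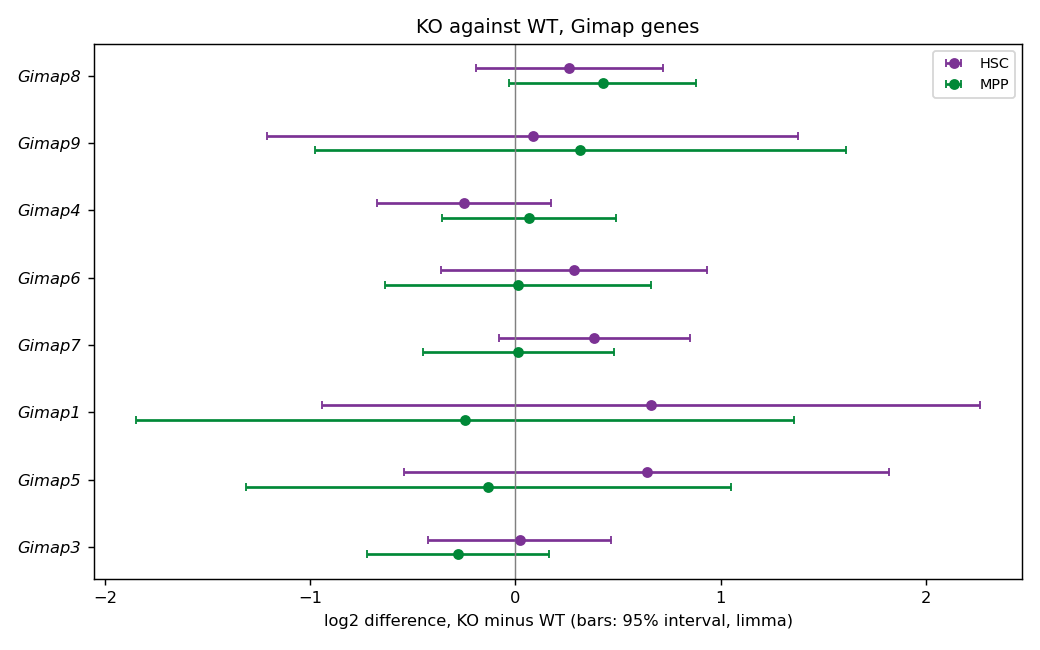
Log2 difference of each Gimap gene, KO minus WT, in HSC and in MPP, with 95% intervals from limma. Every interval spans 0, and those of Gimap8 in MPP (-0.030 to 0.88) and Gimap7 in HSC (-0.079 to 0.85) come closest to excluding it.

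An interaction term compared the KO minus WT difference of HSC with that of MPP, and is positive where the KO minus WT difference was higher in HSC. By limma 0 of 8 members and 0 of 14620 genes (0%) passed, with 658 genes (4.5%) and 0 members at an unadjusted p under 0.05. The members ranged from -0.31 for Gimap4 (95% interval -0.91 to 0.28) to 0.91 for Gimap1 (95% interval -1.36 to 3.17), with Gimap8 at -0.16 (95% interval -0.81 to 0.48). Without KO mouse 2 the Gimap1 value was 0.090 and the Gimap4 value -0.088, and without KO mouse 70 they were 1.40 and -0.50.

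Genes on either side of the cluster were set beside the members. The 16 measured neighbours, 8 on each side by order in the GRCm38.p6 gene table, included the paired membrane proteins Tmem176a and Tmem176b next to Gimap3 and the zinc finger genes Zfp775 and Zfp467 on the side of Gimap8. Of 15 tested, 1 passed between HSC and MPP over both genotypes, Zfp467, at 7.16 ± 0.33 in HSC and 6.39 ± 0.28 in MPP (SD, n = 6), a difference of 0.77 (adjusted p = 0.0344 by limma). That call was lost with the mouse as a block, without mouse 2, 11, 12 or 64, and without the HSC array of KO mouse 2. The nearest tested neighbours, Zfp775 and Tmem176b, stood at -0.19 and 0.56 and did not pass. The neighbours had a median of 0.059 and ranged from -0.79 (Gm5111) to 0.77, and 0 of 15 passed for KO against WT in HSC or in MPP by limma.

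**Figure D5:**
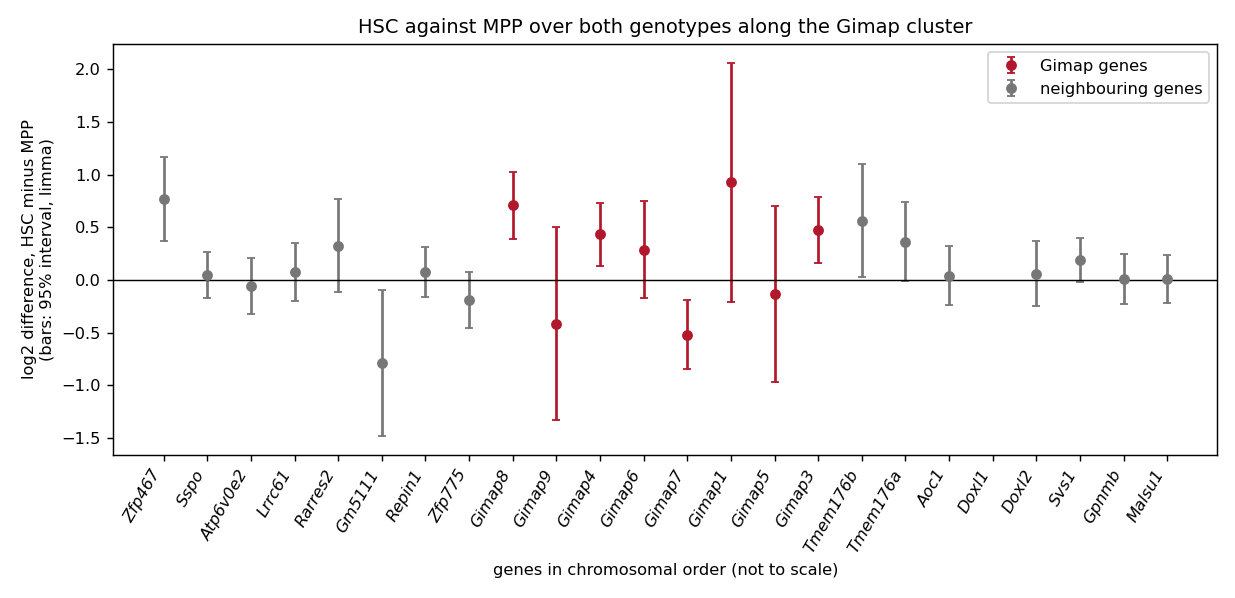
Log2 difference between HSC and MPP over both genotypes, with 95% intervals from limma, for the 8 Gimap genes (red) and 16 neighbours (grey) in chromosomal order. Neither the members nor the neighbours lie on 1 side of 0, and Gimap8 and Zfp467 are the genes that passed; Doxl1 was under the limit on low values and has no point.

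Since GIMAP proteins are lymphocyte proteins, markers of lymphocytes and of other cells that a sort can hold were read on the same arrays. Of 20 measured T and NK cell markers 9 were under the limit on low values, among them Cd3d, Cd3g and Ncr1, and the mean of the list lay at 5.25 to 5.39 in KO HSC, 5.12 to 5.43 in WT HSC, 5.32 to 5.48 in KO MPP and 5.40 to 5.56 in WT MPP. The T cell receptor chain Cd3g read 3.07 to 3.82 on all 12 arrays. Other markers of the list averaged above the limit in both populations. Among them were Lat (9.12 in HSC and 8.94 in MPP), Cd247 (6.91 and 6.67) and Cd4 (6.36 and 6.20). Over both genotypes 1 of 11 tested T and NK markers passed, the cytotoxic granule gene Nkg7 at -2.18 (adjusted p = 1.6e-05 by limma). In bulk samples, fewer cells of a type and less RNA per cell cannot be told apart.

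Among B cell markers 5 of 11 tested passed as lower in HSC, led by the surrogate light chain Vpreb1 at -2.19 and the B lineage factor Ebf1 at -2.07, and 3 passed without mouse 64. Their mean lay at 5.83 to 5.96 in KO HSC, 5.80 to 6.04 in WT HSC, 6.32 to 6.79 in KO MPP and 6.55 to 6.78 in WT MPP, while the mature B cell gene Ms4a1 was under the limit on low values. Of the endothelial and stromal markers 1 of 10 tested passed, Pecam1 at -1.20, with 0 passing without mouse 3, 11, 64 or 70 and 2 with the mouse as a block. Over both genotypes 8 of 10 of these markers were above 0, against 57.2% of all genes tested. Among the 8 were Emcn at 0.57, Sox18 at 0.44 and Cldn5 at 0.24, none of which passed. In KO mice 8 of 10 were above 0 and Emcn stood at 1.28. In WT mice 6 of 10 were above 0 and Emcn stood at -0.13. The endothelial cadherin Cdh5 read 3.93 to 4.50 on all 12 arrays, and the list lay between 5.28 and 5.45 across all groups. Monocyte, macrophage and dendritic cell markers had 5 of 12 passing as lower in HSC, but 2 or 3 when any 1 mouse was left out and 3 with the mouse as a block. They were led by Ccr2 at -2.28 and by Flt3 at -3.35, which is also counted among the lymphoid priming genes. Ccr2 averaged 4.42 in HSC, under the limit on low values, so it was tested through its MPP values. Mature neutrophil markers had 0 of 10 passing by limma, and erythroid markers 1 higher (Car2 at 0.76) and 1 lower (Tfrc at -1.53) of 7. Whether any of these levels took part in the Gimap8 difference was not tested.

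Gene groups that work with or beside the GIMAP proteins were read in the same way. Of 14 tested guanylate-binding, immunity-related and Mx GTPases 4 passed as higher in HSC over both genotypes and 0 as lower. These were Gbp8 at 1.94, Gbp4 at 1.89, Gbp9 at 1.62 and Igtp at 0.94. The list had a median of 0.57, against 0.36 for the Gimap genes and 0.047 over all genes. Gbp9 averaged 4.67 in MPP, under the limit on low values, and was tested through its HSC values, so the count and the median are descriptions. Of 13 tested genes of the BCL2 family, with which Gimap3 and Gimap5 have been linked, 1 passed, Bcl2 at -0.97 (adjusted p = 0.00242 by limma). The Bcl2 difference was -1.57 in KO mice (adjusted p = 0.00374 by limma) and -0.37 in WT mice (adjusted p = 0.435 by limma). Its interaction term stood at -1.21 and did not pass. Of 12 tested ATG8 family and conjugation genes 0 passed by limma, with Gabarapl1 at 0.60 (adjusted p = 0.0823) and Map1lc3b at 0.39, while 1 passed without mouse 2 or without its HSC array. No gene of these lists passed for KO against WT in HSC or in MPP.

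The genes whose values were most alike to the mean of the 8 members over the 12 arrays were the calcium-binding protein S100a11 (Pearson r 0.91, 0.95 within the 6 HSC arrays and 0.74 within the 6 MPP arrays), the pentraxin Ptx3 (r 0.87), Kir3dl1 (r 0.86), B4galnt4 (r 0.86) and Ppm1l (r 0.85), followed by the GTPase Rala, the Fc receptor Fcgr3 and Zfp707 (r 0.84 to 0.85). The most opposite were 1700048O20Rik (r -0.92), E130112N10Rik (r -0.89), Icmt (r -0.87) and Gm614 (r -0.86). Of these, Ppm1l passed between HSC and MPP over both genotypes, at 0.71 (adjusted p = 0.0441 by limma). The member mean itself followed Gimap1 (r 0.67) and Gimap6 (r 0.67) more than Gimap7 (r -0.11), and the members are part of neither list. These genes are the extremes of all genes tested and carry no test.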

How the data were processed

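Bulk RNA of sorted cells (300 pg per sample, amplified with a NuGEN kit per the labels' protocols) was hybridised to 12 one-colour arrays. The deposited values were log2 intensities per probe set, normalized by the authors with RMA, and limma is named too, per the submitters' processing notes; the sources used here give no versions. Of 22142 probe sets, 19527 had 1 gene symbol, 0 had several and 2615 had none. For 33 genes with several, the probe set with the highest mean was kept. The 25% of genes with the lowest mean (below 4.96) were left out, and 14620 were tested.

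Group means of all 12 arrays were fitted with limma 3.58.1 in R 4.3.3, two-sided, with Benjamini-Hochberg adjustment over all genes tested and calls at an adjusted p under 0.05. KO against WT over both populations used the mean of each mouse's arrays. The procedure was tested on simulated data whose arrays were independent, so that test does not cover the pairing by mouse. Replicates are separate mice, and their number limits the precision. The HSC and MPP arrays of a mouse share its number in the labels, so they are paired by animal, which the main fit did not use. Deviations of such pairs correlated at 0.032 to 0.091 over all genes. Even so, 10 of 12 arrays correlated best with their own mouse among the arrays of the other population and same genotype. Blocking on the mouse is an alternative (statmod 1.5.0 for the correlation), as are other filters, probe set averaging, quantile normalization, array weights, another variance model, only the compared arrays, and leaving out each mouse or 1 array.

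Named are all members, Nfat5, up to 8 neighbours on each side of the cluster, up to 4 leading genes of each list, defining markers of other cell types, and the genes most like or opposite to the member mean. The members and lists were chosen with earlier results of these data known. Promoters came from RefSeq on GRCm38.p6, and the sources used here name no build for the array.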

Additional observations from a re-analysis of the deposited data

How the results depend on the processing

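Gimap8 over both genotypes passed under 9 of 14 alternatives, with differences between HSC and MPP of 0.58 to 0.84 and adjusted p of 0.00879 to 0.105 by limma. The count of members passing there was 0 with the mouse as a block, and 0 to 1 when a mouse or an array was left out. With array weights 1 member passed in WT mice (Gimap8, 0.82, adjusted p = 0.0464 by limma). The mouse as a block changed no other call on a member, and moved the genes called between HSC and MPP to 113 in KO mice (184 without it) and 180 in WT mice (302 without it). Where leaving out a mouse or array moved these counts most, they came to 57 to 106 in KO mice, 70 to 96 in WT mice and 379 to 462 over both genotypes (709 with all arrays), and fitting only the arrays compared gave 79 in KO mice. Outside leaving out samples, 404 of 409 values for 56 member comparisons kept direction and side of the threshold. Array weights turned Gimap4 in MPP (KO minus WT) to -0.032, Gimap5 in MPP to 0.053 and Gimap5 in HSC against MPP over both genotypes to 0.013. Leaving out a mouse or array turned the sign in 37 of 384 values, none of them called, and the cause was not tested. For KO minus WT in HSC the ranges were -0.084 to 1.32 for Gimap1, -0.15 to 0.17 for Gimap3 and -0.61 to 0.63 for Gimap9. In MPP they were -0.67 to 0.037 for Gimap1, -0.092 to 0.23 for Gimap4, -0.65 to 0.51 for Gimap5, -0.12 to 0.20 for Gimap6 and -0.20 to 0.17 for Gimap7. Over the mouse means they were -0.33 to 0.63 for Gimap1, -0.16 to 0.014 for Gimap4, -0.017 to 0.58 for Gimap5, -0.042 to 0.33 for Gimap6 and -0.11 to 0.54 for Gimap9. For HSC minus MPP they were -0.39 to 0.19 for Gimap5 over both genotypes, -0.032 to 0.41 for Gimap5 and -1.30 to 0.065 for Gimap9 in KO mice, and -1.03 to 0.13 for Gimap5 and -0.12 to 0.32 for Gimap6 in WT mice. The interaction ranged over -0.41 to 0.11 for Gimap8 and -1.001 to 0.37 for Gimap9.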
